A study of Mus musculus with 3 samples.

Results

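Kinesin superfamily genes encode motor proteins that move along microtubules, and 40 of them were described among 18130 protein-coding genes with a value in mouse cortical neurons. A member was any protein-coding gene of the GENCODE mouse annotation whose symbol is Kif with a number, or Kifc1, Kifc2 or Kifc3. The annotation lists 41 such genes; Kif2b was not analysed here. The libraries are total RNA of cortical neurons from wild-type mice under the control treatment, labelled CON, with 3 replicates in 1 group. The study's title concerns DNA supercoiling and topoisomerases in the neuronal genome, and it names no question about kinesins. With 1 group, every comparison is between genes inside a library, and nothing in the labels says that the replicates came from separate cultures, so their spread may in part be technical.

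Kinesins use ATP to step along microtubules, most of them toward the plus end, which in an axon points away from the cell body. Kinesin-1, kinesin-2 and kinesin-3 motors carry vesicles, mitochondria and protein complexes out along axons and dendrites. Other families build the mitotic spindle, shorten microtubules or serve cilia, and neurons no longer divide once they are formed.

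Levels are in TPM, a relative abundance scaled by transcript length, and the value of a gene is that of 1 coding transcript, the one with the largest read count. Errors are SD over 3 libraries. Over all coding genes these transcripts had about 34450823, 30443129 and 29939087 reads in replicates 1 to 3, and kinesins took 0.762%, 0.771% and 0.732% of them. All 8 neuron markers had a mean of at least 1 TPM, against 61.8% of all coding genes. Their summed level was 1945, 2010 and 1726 TPM in replicates 1 to 3. RNA of other cells was present as well. The 6 astrocyte markers summed to 410.4, 438 and 505 TPM, and the 6 oligodendrocyte lineage markers to 66.8, 49.3 and 83.6 TPM. In such bulk samples, fewer cells of a type and less RNA per cell cannot be told apart.

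The motor domain binds ATP through a phosphate loop, and the stretch of coding sequence for this loop shows where the motor lies in each chain. It is printed for 5 of the highest members, taken from the GENCODE M21 transcripts on GRCm38, with the last 9 bases, which encode glycine, lysine and threonine or serine, in capitals.
Kif5c: gggcagacttcatcaGGAAAAACT
Kif1a: gggcagacgggggccGGCAAGTCC
Kif1b: gggcagactggtgctGGGAAATCC
Kif2a: gggcagactggaagtGGGAAAACT
Kifc2: ggtcagactgggacaGGGAAAACC
Kif1a and Kif1b differed at 5 of 24 bases, while Kif5c and Kif1a differed at 10. The loop began at codon 86 of 956 in Kif5c and at codon 97 of 1697 in Kif1a, near the start of the chain. In Kif2a it began at codon 312 of 705, and in Kifc2 at codon 486 of 792, which is 44.3% and 61.4% along the coding frame. Of the 40 members, 32 had the loop within the first 28.8% of the coding frame, with Kif14, at codon 482 of 1674, the farthest along. Besides Kif2a and Kifc2, only Kif2c, Kifc1 and Kifc3 had it farther along, up to 63.8% in Kifc3. The search for the loop was chosen after the levels were seen. No match was found in 3 members. Kif26a and Kif26b belong to a family known to lack motor activity. For Kif17 the chosen transcript of 756 codons had no match, while its other coding transcripts held the loop at codon 91.

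Of the 40 kinesins, 21 had a mean of at least 1 TPM and are called expressed. This is 52.5% of them, against 61.8% of all coding genes. At minimums of 0.5, 2 and 10 TPM, 33, 15 and 12 kinesins passed, or 82.5%, 37.5% and 30% of them, against 66.6%, 54.9% and 26.9% of all coding genes. At a minimum of 30 TPM, 9 kinesins passed, or 22.5%, against 9.18% of all coding genes. At a minimum of 100 TPM, 3 kinesins passed, or 7.5%, against 1.65%. The family was thus uneven. Its median was 1.22 TPM, below the 2.91 TPM of all coding genes, and the difference of medians was -1.26 ± 0.10 on the log2(TPM + 0.1) scale (SD, n = 3). Among genes of at least 1 TPM, the same difference was 1.41, in the other direction. The 3 highest kinesins held 46.9 ± 1.13% of the summed kinesin TPM, and the 10 highest held 90.2 ± 0.295% (SD, n = 3).

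**Figure D1:**
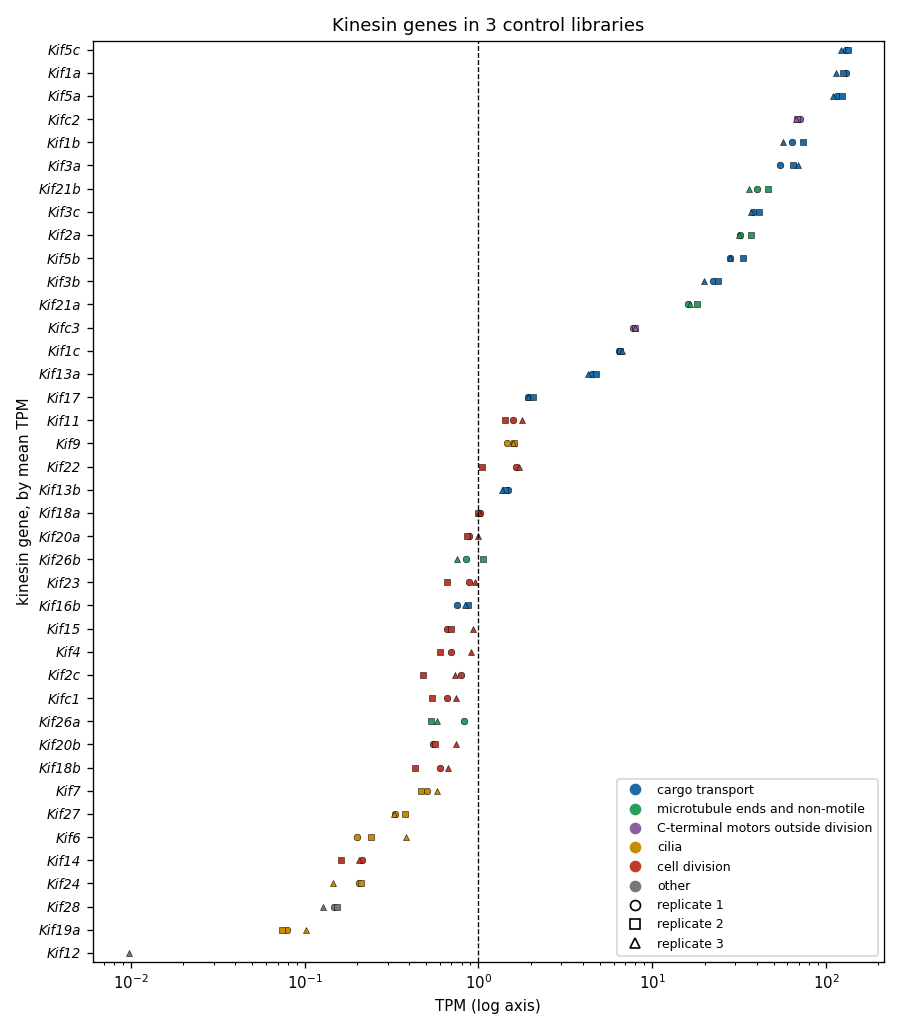
Level of every kinesin gene in the 3 libraries, in TPM on a log axis, ordered by mean and coloured by role; the dashed line marks 1 TPM. Kif12 is drawn for replicate 3 alone, since a value of 0 cannot stand on a log axis, and the cargo motors fill most of the upper end with means of up to 128 TPM, while the means of the cell division motors lie at or below 1.60 TPM.

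The plot of levels by gene is ordered by mean, and the roles separate along it. Of the 13 cargo transport kinesins, 12 were expressed, with a median of 29.8 TPM. Of the 12 cell division kinesins, 3 were expressed, with a median of 0.747 TPM. The difference between the medians of these groups was 5.07, 5.51 and 4.79 log2 units in replicates 1 to 3, a 34.9-fold mean difference with 5.12 ± 0.36 (SD, n = 3). Its size depended on the pseudocount, and it was 4.13 with a pseudocount of 1. The 5 kinesins of microtubule ends and the non-motile group had 3 expressed members, the 6 cilia kinesins had 1, and both C-terminal motors outside division were expressed.

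Kinesin-1 is a dimer of heavy chains, the motors, with light chains that bind cargo. Kif5c had the highest mean of all kinesins, at 130.0, 133.5 and 121.3 TPM in replicates 1 to 3. Kif5a was at 114.9, 123.5 and 109.6 TPM. Both are known as heavy chains enriched in neurons. Kif5b, the heavy chain found in most tissues, was at 28.2, 33.1 and 28.1 TPM. Its 3 values lay far below those of Kif5a and Kif5c and did not overlap them. Kif5c made up 46.8 ± 0.80% of the kinesin-1 heavy chain TPM, Kif5a 42.3 ± 0.25% and Kif5b 10.9 ± 0.55% (SD, n = 3). Inside a library, Kif5c was 4.32 ± 0.29-fold above Kif5b and Kif5a was 3.90 ± 0.17-fold above it. Kif5a stood below Kif5c in 3 of 3 libraries, at 0.904 ± 0.021 of its level, although their ranges overlapped across libraries. By the two-sided exact sign-flip permutation test each of these differences had p = 0.25, the smallest value that 3 libraries allow, so none could reach 0.05. Only 79.0% of the 50-base stretches of the Kif5b transcript are unique in the genome. How reads with several matches were counted is not given in the sources used here, so the level of Kif5b is uncertain. Kif5c spans 49619298 to 49774778 on chromosome 2 of GRCm38 and Kif5a 127225696 to 127263348 on chromosome 10.

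The 20 light chains and adaptors of kinesin-1 had a median of 27.4 TPM. Of them 19 were expressed, against 61.8% of all coding genes. Klc1, a light chain, was at 261 ± 8.75 TPM, above every kinesin. Fez1, an adaptor for axonal transport, was at 168 ± 11.7 TPM, and Clstn1, a membrane cargo that binds light chains, at 143 ± 12.6 TPM. Klc3 was the lowest, at 0.285 ± 0.126 TPM, while Klc2 was at 25.5 ± 0.551 TPM and Klc4 at 3.40 ± 0.217 TPM (SD, n = 3).

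Kinesin-3 was led by Kif1a, the motor of synaptic vesicle precursors, at 130.9, 124.6 and 114.3 TPM. The ranges of Kif1a, Kif5c and Kif5a overlapped across libraries. Inside a library, Kif5a was the lowest of these 3 each time, though narrowly in replicate 2, at 123.5 against 124.6 TPM for Kif1a. The order of Kif1a and Kif5c changed, with Kif1a higher in replicate 1 and lower in replicates 2 and 3. Kif1b, which carries synaptic vesicle precursors or mitochondria depending on the form, was at 64.1, 74.0 and 56.6 TPM. All 3 values lay below those of Kif1a, with a difference of -0.93 ± 0.15 log2 units. Kif1c, a broadly expressed relative, was at 6.43, 6.49 and 6.71 TPM, with a difference from Kif1b of -3.28 ± 0.22 log2 units. Kif13a, a motor of endosomes and Golgi vesicles, had 4.50 ± 0.225 TPM and its paralogue Kif13b 1.42 ± 0.059 TPM, a difference of -1.60 ± 0.06. Kif16b, which moves early endosomes, was at 0.822 ± 0.061 TPM and was the 1 cargo motor under the minimum (SD, n = 3 throughout).

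Kinesin-2 motors work as Kif3a with Kif3b or Kif3c, joined by the accessory subunit Kifap3, while Kif17 forms a dimer of its own that carries cargo in dendrites. Kif3a was at 54.1, 64.6 and 69.0 TPM. Kif3c was at 38.2, 41.3 and 36.9 TPM, and Kif3b at 22.4, 23.9 and 19.9 TPM. The ranges of Kif3a, Kif3c and Kif3b did not overlap. Kif3a was highest in replicate 3, where Kif3b and Kif3c were lowest, so the difference of Kif3b from Kif3a ran from -1.27 to -1.79 log2 units, with a mean of -1.50 ± 0.27. Kif3c lay -0.68 ± 0.20 from Kif3a. Of the TPM of these motors, Kif3a held 49.8 ± 3.89%, Kif3c 31.0 ± 1.96% and Kif3b 17.6 ± 1.87%, and Kif17 held the remaining 1.57 ± 0.07% (SD, n = 3). Kif17 itself was at 1.92, 2.06 and 1.94 TPM, a tight range, on a transcript without the loop, as given above. Of this transcript, 2.38% overlaps Sh2d5 on the same strand, so some of its reads may belong there. Of the Kif3c transcript, 87.0% of the 50-base stretches are unique, and its level is uncertain for the same reason as that of Kif5b.

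All 11 partners of kinesin-2 and kinesin-3 were expressed, against 61.8% of all coding genes. Arl8a, a small GTPase of lysosomes and synaptic vesicle precursors, was at 142 ± 17.8 TPM, and its relative Arl8b at 89.6 ± 7.23 TPM. Kifap3 was at 101 ± 7.502 TPM, above each kinesin-2 motor. The lowest was Borcs5, a subunit of a complex that recruits Arl8 to lysosomes, at 4.99 ± 0.125 TPM (SD, n = 3).

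**Figure D2:**
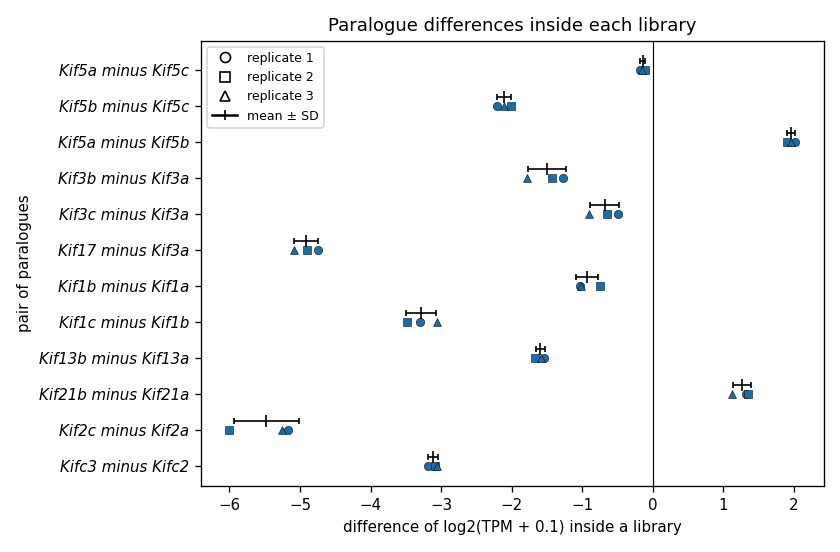
Difference of log2(TPM + 0.1) between paralogues inside each library for the 12 pairs compared, with points for the 3 libraries and a bar above them for mean and SD. All points of a pair lie on the same side of 0, from Kif2c minus Kif2a at -5.48 to Kif5a minus Kif5b at 1.96.

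The plot of paralogue differences holds 12 pairs, and in each pair the sign was the same in 3 of 3 libraries. Each pair had p = 0.25 by the two-sided exact sign-flip permutation test, and 0.25 after Benjamini-Hochberg adjustment over the 12 pairs. When the TPM of all transcripts of a gene were added instead, which counts shared reads repeatedly, 1 pair changed direction and 6 others moved by over 1.5 times. Kif5a minus Kif5b became -0.56. Kif5a minus Kif5c became -2.76, Kif3b minus Kif3a -4.67 and Kif3c minus Kif3a -3.86. Kif17 minus Kif3a became -6.21, Kif2c minus Kif2a -6.48 and Kifc3 minus Kifc2 -1.52.

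Among the kinesins of microtubule ends, Kif21b was at 40.3, 46.1 and 36.2 TPM and Kif21a at 15.97, 18.05 and 16.58 TPM. Both are known to limit microtubule growth, and they did not overlap, with Kif21b 1.27 ± 0.12 log2 units higher. Kif2a, which removes tubulin from microtubule ends and limits axon branches, was at 31.9, 37.1 and 31.7 TPM. Its paralogue Kif2c, which works on mitotic chromosomes, was at 0.789, 0.480 and 0.732 TPM, a difference of -5.48 ± 0.46 log2 units. With a pseudocount of 1 the difference was -4.38, and with the transcript of highest TPM it was -6.33. Of the Kif2a transcript, 87.5% of the 50-base stretches are unique. The non-motile Kif26b and Kif26a were at 0.890 ± 0.158 and 0.647 ± 0.157 TPM (SD, n = 3).

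Kifc2 and Kifc3 are known to have their motor behind the stalk, and motors of this layout move toward the minus end. Their loops began 61.4% and 63.8% along the coding frame, but the stalk was not searched for. Kifc2, known from axons and dendrites, was at 71.1, 68.0 and 67.3 TPM, the fourth highest kinesin. Kifc3 was at 7.71, 7.95 and 7.996 TPM, below all Kifc2 values, with a difference of -3.11 ± 0.07 log2 units (SD, n = 3). Kifc2 also had the shortest gene span among the expressed members, 8.34 kb.

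The 12 cell division kinesins were low but above 0 in every library. Kif11, the motor that pushes spindle poles apart, was highest, at 1.59, 1.43 and 1.79 TPM from 392 reads in replicate 1. Kif22, a chromosome-binding motor, was at 1.65, 1.05 and 1.71 TPM. Kif18a, which aligns chromosomes, was at 1.03, 0.996 and 1.01 TPM and lay just above the minimum of 1 TPM. Kif20a, a cytokinesis motor, lay just below it at 0.911 ± 0.069 TPM. Kif23, another cytokinesis motor, was at 0.883, 0.662 and 0.953 TPM. Kif15, which helps to hold spindle poles apart, was at 0.660, 0.692 and 0.932 TPM, and Kif4, which acts on chromosome arms and the midzone, at 0.697, 0.599 and 0.905 TPM. Kifc1, which focuses spindle poles, was at 0.656, 0.541 and 0.745 TPM, but 62.3% of its 50-base stretches are unique and the value is uncertain. Kif20b, a cytokinesis motor, and Kif18b, which acts at microtubule plus ends, had means of 0.620 ± 0.107 and 0.567 ± 0.123 TPM. Kif14, a cytokinesis motor, was the lowest of the group at 0.194 ± 0.027 TPM, from 98 reads in replicate 1 (SD, n = 3).

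The libraries ordered these motors in a shared way. Of the 12, 10 were lowest in replicate 2, against 32.3% of the 3791 coding genes of 0.1 to 2 TPM. Highest in replicate 3 were 9 of 12, against 40.9% of those genes. The exceptions to the lowest rank in replicate 2 were Kif15 and Kif20b, which were lowest in replicate 1. The median deviation of all 12 from the mean of the libraries was 0.02, -0.18 and 0.19 log2 units in replicates 1 to 3. That of the coding genes in the same range was -0.02, 0.00 and 0.03. In 10 of 12 the coefficient of variation exceeded that from read counting alone, as it did in 31 of all 40 kinesins. The same share over all coding genes was not computed, so this excess cannot be called particular to these motors. These ranks were counted after the values were seen.

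Proliferation, mitotic spindle and oligodendrocyte lineage genes were also mostly lowest in replicate 2. There 25.4% of all expressed coding genes were lowest, and 32.3% of all coding genes of 0.1 to 2 TPM, a range that holds many of these genes. Astrocyte and neuron markers were ordered otherwise, as given below. All 8 proliferation markers were lowest in replicate 2, with sums of 25.9, 20.1 and 25.7 TPM, and 7 of them were expressed. The highest were Pcna, a replication clamp, at 8.36 ± 1.20 TPM, Ccna2, a cyclin, at 3.53 ± 0.355 TPM and Ube2c, a mitotic ubiquitin enzyme, at 3.03 ± 0.389 TPM, and the lowest was Ccnb1 at 0.612 ± 0.166 TPM. Of 12 mitotic spindle partners, 9 were expressed and 10 were lowest in replicate 2, with sums of 23.8, 22.6 and 26.4 TPM. Of all coding genes, 61.8% were expressed. Racgap1, the partner of Kif23, was at 5.60 ± 0.334 TPM, Spc25 at 3.37 ± 0.282 TPM and Incenp at 3.27 ± 0.315 TPM, and Bub1 was lowest at 0.911 ± 0.188 TPM. The oligodendrocyte lineage list was lowest in replicate 2 for 5 of 6 markers, with the sums given above. Its highest members were Olig1 at 34.4 ± 2.91 TPM, Olig2 at 15.95 ± 6.36 TPM and Pdgfra, a precursor marker, at 11.6 ± 6.72 TPM, with Mbp lowest at 1.24 ± 0.055 TPM. The part of these cells in the level of the cell division kinesins was not tested (SD, n = 3 throughout).

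**Figure D3:**
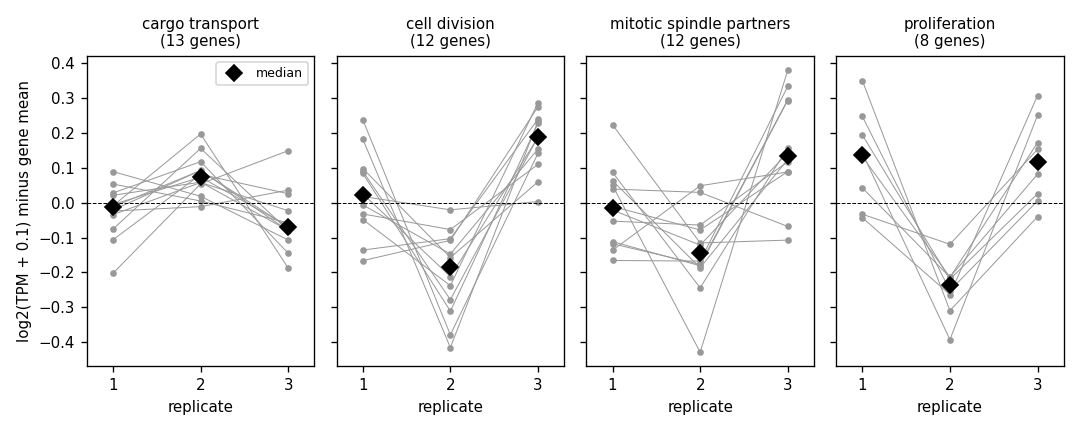
Difference of each gene from its mean over the 3 libraries, in log2(TPM + 0.1) units, for the 13 cargo transport kinesins, the 12 cell division kinesins, the 12 mitotic spindle partners and the 8 proliferation markers; grey lines join the values of a gene and diamonds are medians. In replicate 2 the cell division kinesins have a median of -0.18, the mitotic spindle partners -0.14 and the proliferation markers -0.24, while the cargo transport kinesins have 0.07.

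Cargo motors ranked the libraries the other way in the plot of deviations. Of the 12 expressed cargo kinesins, 8 were highest in replicate 2, against 40.4% of all expressed coding genes, and 9 were lowest in replicate 3, against 41%. None of the 12 was lowest in replicate 2, against 25.4%. The deviations were small, with medians of -0.01, 0.07 and -0.07 log2 units. The neuron markers had the same ranks: 6 of 8 were highest in replicate 2 and 7 of 8 lowest in replicate 3. Among them Stmn2 was at 687 ± 55.6 TPM, Snap25 at 373 ± 27.2 TPM and Tubb3 at 234 ± 29.99 TPM, and Rbfox3 was lowest at 37.8 ± 1.46 TPM. The astrocyte markers were highest in replicate 3 for 5 of 6, led by Slc1a3 at 184 ± 19.1 TPM, Aldoc at 128 ± 21.4 TPM and Slc1a2 at 59.6 ± 5.45 TPM, with Gfap lowest at 16.6 ± 1.75 TPM. The part of cell composition in these ranks was not tested. Over all 21 expressed kinesins, 12 were highest in replicate 2 and 5 in replicate 3, the latter 23.8% against 31.4% of all expressed coding genes. Their median coefficient of variation was 6.06%, against 7.88% of all expressed coding genes, and ranged from 1.47% for Kif18a to 24.6% for Kif22. Read counting alone would give a median of 1.32%.

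Promoters of cell cycle genes often hold a short element known as CHR, near the start of transcription, through which they are kept off outside division. Its core TTTGAA was searched on both strands in the 250 bases before the RefSeq start of each gene on GRCm38.p6, where that start lay within 500 bases of the start of the transcript used. The motif and the limit of 500 bases were chosen after values were seen. It was found in 4 of 10 windows of cell division kinesins, in 0 of 9 of cargo kinesins, in 1 of 4 each of the cilia and the microtubule end groups, and in 6 of 28 of all kinesins. Of all 32851 promoter windows, taken without the limit of 500 bases and with several for some genes, 16% held it. The kinesin counts take only the nearest window of a gene, so these shares are of unlike sets. The limit leaves out Kif2c, whose window holds a match but lies 3867 bases from the start of its transcript. Among cell division kinesins, the windows of Kif11, Kif22 and Kif15 are shown because each has a match close to the RefSeq start. Every match is in capitals. The windows lie on chr19:37376132-37376381 (plus strand), chr7:127042421-127042670 (minus strand) and chr9:122950831-122951080 (plus strand).
Kif11: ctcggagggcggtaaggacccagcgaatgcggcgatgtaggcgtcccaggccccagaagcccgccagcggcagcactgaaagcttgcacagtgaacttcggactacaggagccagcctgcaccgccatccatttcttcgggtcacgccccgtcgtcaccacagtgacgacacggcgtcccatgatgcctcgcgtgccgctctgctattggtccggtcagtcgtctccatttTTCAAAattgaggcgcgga
Kif22: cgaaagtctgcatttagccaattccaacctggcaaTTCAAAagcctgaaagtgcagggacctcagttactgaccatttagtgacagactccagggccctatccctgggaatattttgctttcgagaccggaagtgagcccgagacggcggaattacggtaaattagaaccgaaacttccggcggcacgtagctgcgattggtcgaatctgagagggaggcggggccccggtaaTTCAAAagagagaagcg
Kif15: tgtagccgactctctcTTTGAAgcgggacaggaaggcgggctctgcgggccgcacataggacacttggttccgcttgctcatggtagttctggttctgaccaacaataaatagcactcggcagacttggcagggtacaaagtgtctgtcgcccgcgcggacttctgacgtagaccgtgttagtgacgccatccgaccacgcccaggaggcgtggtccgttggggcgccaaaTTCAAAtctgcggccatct
From the RefSeq start, the nearest match begins at position -19 in Kif11 and Kif15 and at -17 in Kif22, and in all 3 it reads TTCAAA on the strand of the gene. The transcripts used for the levels start elsewhere. From their start the match begins at position -40, upstream, in Kif11, but 34 bases downstream in Kif22 and 16 bases downstream in Kif15, so the distance depends on which annotated start is taken. Kif22 and Kif15 have a second match farther away. Such a match is not confined to cell division kinesins. In Kif26b, of the microtubule end group, it is closer still, at position -9 from the RefSeq start, in a window not shown. The match in Kif14 is at position -228 from its RefSeq start. The windows of Kif14 and of Kif27, the cilia kinesin with a match, lie inside the annotated gene and not before its first start. A match is a description of these letters and shows no binding.

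Of the 6 cilia kinesins, Kif9, a motor of motile cilia, was expressed, at 1.46, 1.60 and 1.57 TPM. Kif7, which acts in Hedgehog signalling at the tip of the primary cilium, was at 0.505, 0.465 and 0.576 TPM. Kif27, a relative of Kif7, was at 0.346 ± 0.028 TPM. Kif6 was at 0.199, 0.243 and 0.385 TPM, and Kif24, which shortens microtubules at centrioles, at 0.187 ± 0.037 TPM. Kif19a, which sets the length of motile cilia, was at 0.085 ± 0.015 TPM, from 14 reads in replicate 1. The cilia kinesins had no shared order of libraries, with 3 of 6 highest in replicate 2 and 3 in replicate 3. The 7 ependymal and multiciliated markers summed to 4.44, 5.63 and 7.61 TPM in replicates 1 to 3. This sum is carried by Rsph1 and Foxj1. Only 4 of the 7 were highest in replicate 3, and the list's median, on the log2(TPM + 0.1) scale, was lowest there, at -2.33 against -2.21 and -2.24. Of these 7 markers 2 were expressed, against 61.8% of all coding genes. They were Rsph1 at 2.67 ± 0.851 TPM and Foxj1 at 2.25 ± 0.585 TPM. Ccdc153 was at 0.731 ± 0.276 TPM, and Dnah11 was lowest at 0.021 ± 0.0075 TPM (SD, n = 3). Their part in the levels of the cilia kinesins was not tested.

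Kif28 and Kif12 were placed in no role. Kif28 was at 0.143 ± 0.014 TPM (SD, n = 3), and 4.40% of its transcript overlaps Ahctf1 on the same strand, so some of its reads may belong there. Kif12, known from kidney, had 0 reads in replicates 1 and 2 and 1 read in replicate 3, or 0.0097 TPM. A count of 0 allows up to 0.026 TPM in replicate 1 and 0.031 TPM in replicate 2, for counting error only.

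**Figure D4:**
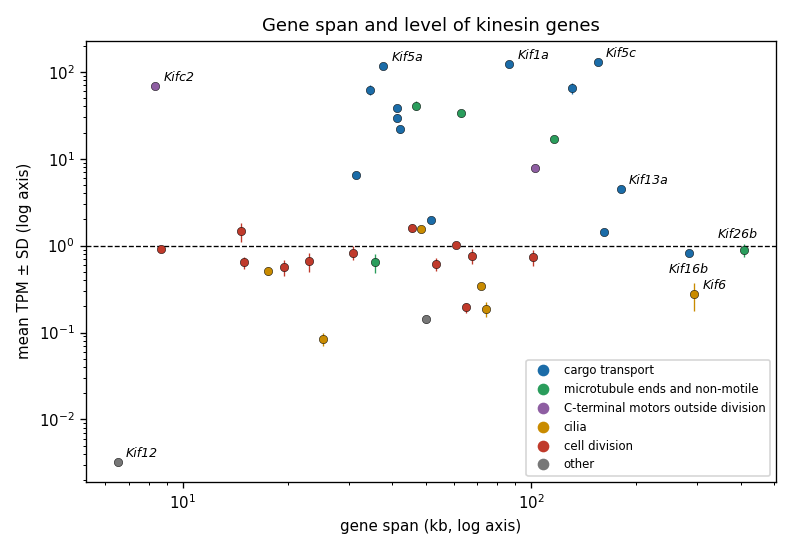
Span of each kinesin gene in kb against its mean level in TPM with SD over 3 libraries, both on log axes and coloured by role; the dashed line marks 1 TPM. Up to Kif13a at 181 kb, genes lie on both sides of the line, from Kifc2 at 8.34 kb and 68.8 TPM on, while the 3 longest, Kif16b, Kif6 and Kif26b, lie below it.

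Kinesin genes were long, and gene length bears on the study's subject, since transcription of long genes is known to depend on topoisomerases. The median span was 49.1 kb, against 22.0 kb for all coding genes, and the median coding length was 3036 bases against 1296. Expressed and other kinesins had medians of 48.2 and 49.98 kb. Across the 40 members the plot of span against level showed little order, with a Spearman rho of 0.12 (n = 40 genes, measured in the same 3 libraries). Of the 10 members over 100 kb, 6 were expressed, among them Kif5c at 155 kb and Kif13a at 181 kb. The 3 longest, Kif26b at 410.1 kb, Kif6 at 295 kb and Kif16b at 284 kb, were below the minimum.

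Several kinesins have a shorter coding transcript that lies almost wholly within a longer one and ends earlier at the 3' end. The bases of the longer transcript outside the shorter one are called the stretch here and lie mostly at the 3' end. A few of them can lie elsewhere. Read density in the stretch was compared with the reads per base inside the shorter transcript, an analysis chosen after the values were seen. In Kif1b the stretch of 4241 bases had 113%, 121% and 101% of the inner read density in replicates 1 to 3, or 112 ± 9.997%. In Kif1a the stretch of 2311 bases had 71.2%, 69.3% and 58.2%, or 66.2 ± 7.02%. The stretch was as dense as the part inside in Kif1b and less dense in Kif1a. In Kif2a the stretch of 3291 bases had 45.5%, 48.6% and 41.0%, or 45.0 ± 3.81%. In Kif3a the stretch of 871 bases had 50.4%, 44.8% and 33.8%, or 43.0 ± 8.45% (SD, n = 3). The value was lowest in replicate 3 for each of these 4 genes. How many other genes were lowest there was not counted, so this order cannot be called particular to kinesins. Over 503 expressed genes with such a pair of transcripts and at least 300 bases of difference, the median was 75.7%, with quartiles of 37.2% and 109%. Kif7 had such a pair too, with 91.7 ± 32.8%, but from 8 to 11 reads in the stretch, and it is not plotted.

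**Figure D5:**
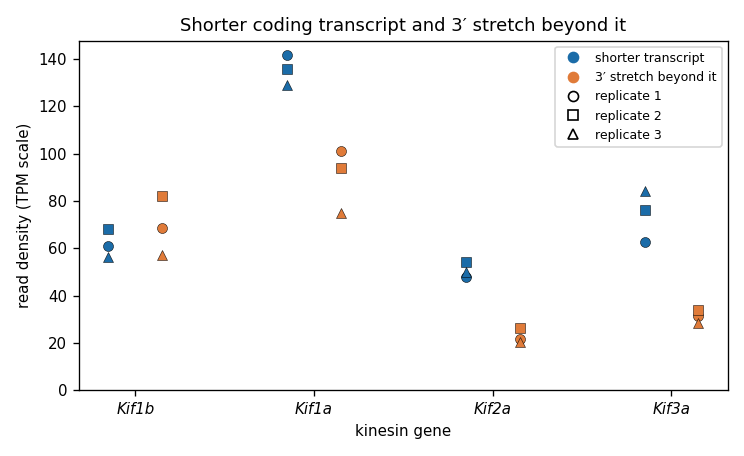
Read density on the TPM scale in the shorter coding transcript (blue) and in the stretch outside it (orange) for Kif1b, Kif1a, Kif2a and Kif3a, with marker shapes for the 3 libraries. The stretch is the bases of the longer transcript that the shorter one lacks, mostly at the 3' end. In Kif1b the stretch is as dense as the shorter transcript or denser in every library, and in the other 3 genes it is less dense in every library.

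Kif1b makes a long form, known to carry synaptic vesicle precursors, and a short form with another tail, known to carry mitochondria. The short form transcript was at 20.8, 25.2 and 22.7 TPM and the long form transcript, in its version with the shorter 3' end, at 60.9, 68.0 and 56.4 TPM. The long form was higher in 3 of 3 libraries, 61.8 ± 5.86 against 22.9 ± 2.19 TPM (SD, n = 3). The transcripts share 2124 bases at the motor end, and reads there count for both. If the shared bases had the density of the long form, the 4867 bases of the short form alone would stand at 3.35, 6.53 and 8.07 TPM, or 5.98 ± 2.41 (SD, n = 3). This split was also chosen after the values were seen.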

How the data were processed

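Per the labels' protocols, total RNA was purified with a QIAgen kit and a KAPA kit served for the libraries. The submitters' processing notes name STAR 2.5.3a, Subread 1.4.6, featureCounts, FastQC 0.11.2 and build mm10. Counting settings are not given in the sources used here. The authors deposited TPM values for 84660 transcripts, of which 98.06% matched GENCODE M21 on GRCm38 by identifier.

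TPM times exonic length gave whole reads, within 0.01, for 99.8% of rows above 0 whose ends are the same in M21. Of the members, 28 gave whole reads and the rest approximate ones. Reads of overlapping transcripts of a gene are shared, so the coding transcript with the most reads stands for the gene.

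For each pair, the difference of log2(TPM + 0.1) was taken per library, with an exact sign-flip permutation test. Uniqueness was measured with 50-mers taken every 10 bases. Every member is accounted for, and of each partner and marker list the 3 highest and the lowest were named, with others chosen after their values were seen. Members and lists were chosen with earlier results of these data known. Alternatives were 2 pseudocounts, other transcript choices, the uniqueness filter, other minimum levels, rescaling to nuclear coding genes and leaving out each replicate. The loop sequences of some members are not reported here. Scripts were tested on simulated data. Python 3.11.15, numpy 2.4.6, pandas 2.3.3 and scipy 1.17.1 were used. Intervals and floors cover counting error only.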

Additional observations from a re-analysis of the deposited data

How the results depend on the processing

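Of 92 values of paralogue pairs under the alternatives, 91 kept their direction and 1 reversed: Kif5a minus Kif5b was -0.56 with the sum over transcripts. The difference of the kinesin median from that of all coding genes reversed to 1.41 among genes of at least 1 TPM, and was -0.85 with a pseudocount of 1 and -1.46 among members with at least 90% unique 50-mers. The difference of cargo transport from cell division medians was 4.13 with a pseudocount of 1, 4.53 with the sum over transcripts, 4.64 among unique members and 4.48 among genes of at least 1 TPM. Expressed members numbered 33 at a minimum of 0.5 TPM, or 82.5% against 66.6% of all coding genes, and 32 with the sum. Expressed members highest in replicate 3 numbered 13 at 0.5 TPM, 3 at 2 TPM and 10 with the sum. Of all coding genes, 31.4% of those of at least 1 TPM and 40.9% of those of 0.1 to 2 TPM were highest there. Their shares with the sum, and their ranks at the other minimums, were not computed. Leaving out each replicate kept the cargo difference between 4.93 and 5.29 and reversed no pair. Under the uniqueness filter, pairs with Kif5b, Kif3c or Kif2a gave no value. The causes of these moves were not tested. No paired analysis was possible because the libraries form 1 group, with no other group to pair them with by number. The paralogue differences were taken inside each library from the outset. Groups of 3 are too small for a test of single outlying libraries, and low members rest on few reads, such as 14 for Kif19a in replicate 1.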
